A study of Mus musculus with 27 samples.

Results

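This report describes 7 transcription factor genes of neuromesodermal and caudal progenitors: Sox2, Sox3, Nkx1-2, T (Brachyury), Cdx1, Cdx2 and Cdx4. They were taken by name for this role, with earlier results of these data known. All 7 were found by symbol among the 48795 genes of each file. Their mRNA was measured by RNA-seq in mouse embryonic stem cells driven stepwise towards gonadal progenitors, 27 libraries in 9 groups of 3. The study describes its replicates as biological and the labels name no separate cultures, so the p-values here measure the spread between these libraries.

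All groups were XY cells of strain F1:C57BL/6 x CBA, carrying Tesco-CFP, a fluorescent reporter of Sertoli cells, and R26-rtTA. The latter supplies the doxycycline-dependent activator from the Rosa26 locus. The study states that most of its differentiation work used 1 clone, clone 7. ESC were stem cells kept in 2i/LIF and passaged once in serum replacement with LIF. EpiSC were epiblast-like cells made in 20 ng/ml Activin A and 12 ng/ml bFGF for 2.5 days. M were early mesodermal cells made from them in 20 ng/ml bFGF, 10 ng/ml BMP4 and 10 μM of the PI3K inhibitor LY294002 for 36 hours. The 5 intermediate mesoderm conditions then had 5 ng/ml bFGF and 20 ng/ml BMP4 in common for 3.5 days. IM1 received nothing more, IM3 received 100 nM retinoic acid, IM2 retinoic acid and 10 ng/ml Activin A, IM4 retinoic acid and 0.3 μM of the WNT agonist CHIR99021, and IM5 all of these. iSLC were Sertoli-like cells made from IM3 by doxycycline-driven lentiviral Nr5a1 and Dmrt1 for 4 days and, per the study's methods, sorted for the CFP reporter. The study's methods also moved these cells to another medium, with EGF, FSH, FGF9, prostaglandin D2, testosterone and Activin A, so the effects of the 2 factors, the medium and the sort cannot be told apart in iSLC against IM3. In iSLC, Nr5a1 was at 93.8 ± 6.55 TPM (SD, n = 3) and Dmrt1 at 213 ± 18.7 TPM (SD, n = 3), against 0.0900 ± 0.0458 TPM and 0.450 ± 0.174 TPM in IM3 (SD, n = 3).

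Libraries held between 35923040 and 84876603 estimated counts. Stage markers followed the labels for ESC, EpiSC and M: the summed level of 5 early mesoderm markers (Eomes, Mesp1, Mixl1, Tbx6 and Lhx1) was 510.7 to 555.3 TPM in M and 6.04 to 6.67 TPM in ESC. The 8 intermediate mesoderm and genital ridge markers (Osr1, Pax2, Pax8, Wt1, Gata4, Lhx9, Tcf21 and Emx2) summed to 495.8 to 534.5 TPM in IM3, but to 84.01 to 94.95 TPM in IM1, under the 140 to 164.6 TPM of M, with Gata4 at 149.9 ± 12.2 TPM in M and 75.8 ± 7.26 TPM in IM1 (SD, n = 3). By the test, 2 of the 8 were called higher and none lower in IM1 than in M (median log2 fold change 0.72), Osr1 (4.03) and Wt1 (1.37), so the sum and the calls differ in direction. The 8 Sertoli cell markers (Sox9, Amh, Dhh, Cst9, Sox8, Shbg, Ptgds and Gata1) summed to 35.1 to 38.5 TPM in iSLC and to 46.5 to 55.6 TPM in IM3. By the test, none of the 7 tested was called higher or lower in iSLC (median log2 fold change 0.40), again unlike the sum in direction. This list thus did not set the sorted cells above their parents. The summed level of 6 adult red blood cell genes moved with the groups, from 11.7 to 91.0 TPM in ESC, 42.4 to 80.0 TPM in M, 21.3 to 74.4 TPM in IM3 and 30.8 to 72.1 TPM in IM4, against 1.57 to 4.54 TPM in every library of the other groups. Its part in the results was not tested. In bulk RNA, fewer cells that carry a transcript and less transcript per cell cannot be told apart, nor can it be told whether the same cells carried several of these transcripts.

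Neuromesodermal progenitors are the cells of the caudal epiblast and tailbud that feed both the spinal cord and the paraxial mesoderm. They are known for carrying the neural factor Sox2 and the mesodermal T-box factor T together, with Nkx1-2 as a further marker, and are kept by Wnt and FGF signals. The Cdx homeodomain proteins act downstream of these signals and activate trunk Hox genes, and retinoic acid from the somites closes the program by opposing FGF signalling. Outside the tailbud, Sox2 is a core pluripotency factor, Sox3 its close relative in the neural plate and epiblast, and Cdx2 a factor of the trophectoderm, the allantois and the gut.

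The promoters of T and Sox2 are shown because they hold the motif letters searched for. Both are the 250 bases upstream of the RefSeq start on the gene's strand (GRCm38.p6), with motif letters in capitals. In T (chr17:8434173-8434422, plus strand) the capitals are TCAAAG, the reverse complement of the TCF/LEF core CTTTGA, with its first base at -234, and TTTATG, a Cdx site, at -178. In Sox2 (chr3:34649745-34649994, plus strand) they are TGACCT, the reverse complement of AGGTCA, the core bound by retinoic acid receptors, at -244, and TTTATT, a Cdx site, at -27.
T: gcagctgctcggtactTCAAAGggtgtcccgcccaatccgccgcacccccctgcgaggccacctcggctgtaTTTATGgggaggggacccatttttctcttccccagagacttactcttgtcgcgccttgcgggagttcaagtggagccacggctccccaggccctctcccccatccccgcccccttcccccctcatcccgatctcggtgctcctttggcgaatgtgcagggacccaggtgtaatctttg
Sox2: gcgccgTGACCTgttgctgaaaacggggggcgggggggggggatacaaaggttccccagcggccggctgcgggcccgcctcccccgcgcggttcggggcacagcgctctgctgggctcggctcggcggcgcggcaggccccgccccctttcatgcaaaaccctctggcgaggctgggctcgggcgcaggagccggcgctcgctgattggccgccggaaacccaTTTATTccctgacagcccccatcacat
Promoters of 5 of the 7 genes were matched in the RefSeq table, those of Sox2, Nkx1-2, T, Cdx2 and Cdx4. In the searched window, which runs from 250 bases before to 50 after the start on both strands, Nkx1-2, Cdx2 and Cdx4 held none of the 5 motifs, and no member held TCACAC, the Brachyury core. Among 32851 promoters of the same length, 16.0% held CTTTGA, 16.3% AGGTCA, 19.6% TTTATT, 11.9% TTTATG and 14.5% TCACAC. A match is a description of letters, and the RefSeq start of Sox2 lies upstream of the annotated start given below.

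The members peaked in different groups. Sox2 and Cdx1 were highest in ESC, T in M, Sox3, Nkx1-2 and Cdx2 in IM1, and Cdx4 in EpiSC. Levels are given in TPM, the share of transcripts after correction for transcript length, which allows genes to be compared.

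**Figure D1:**
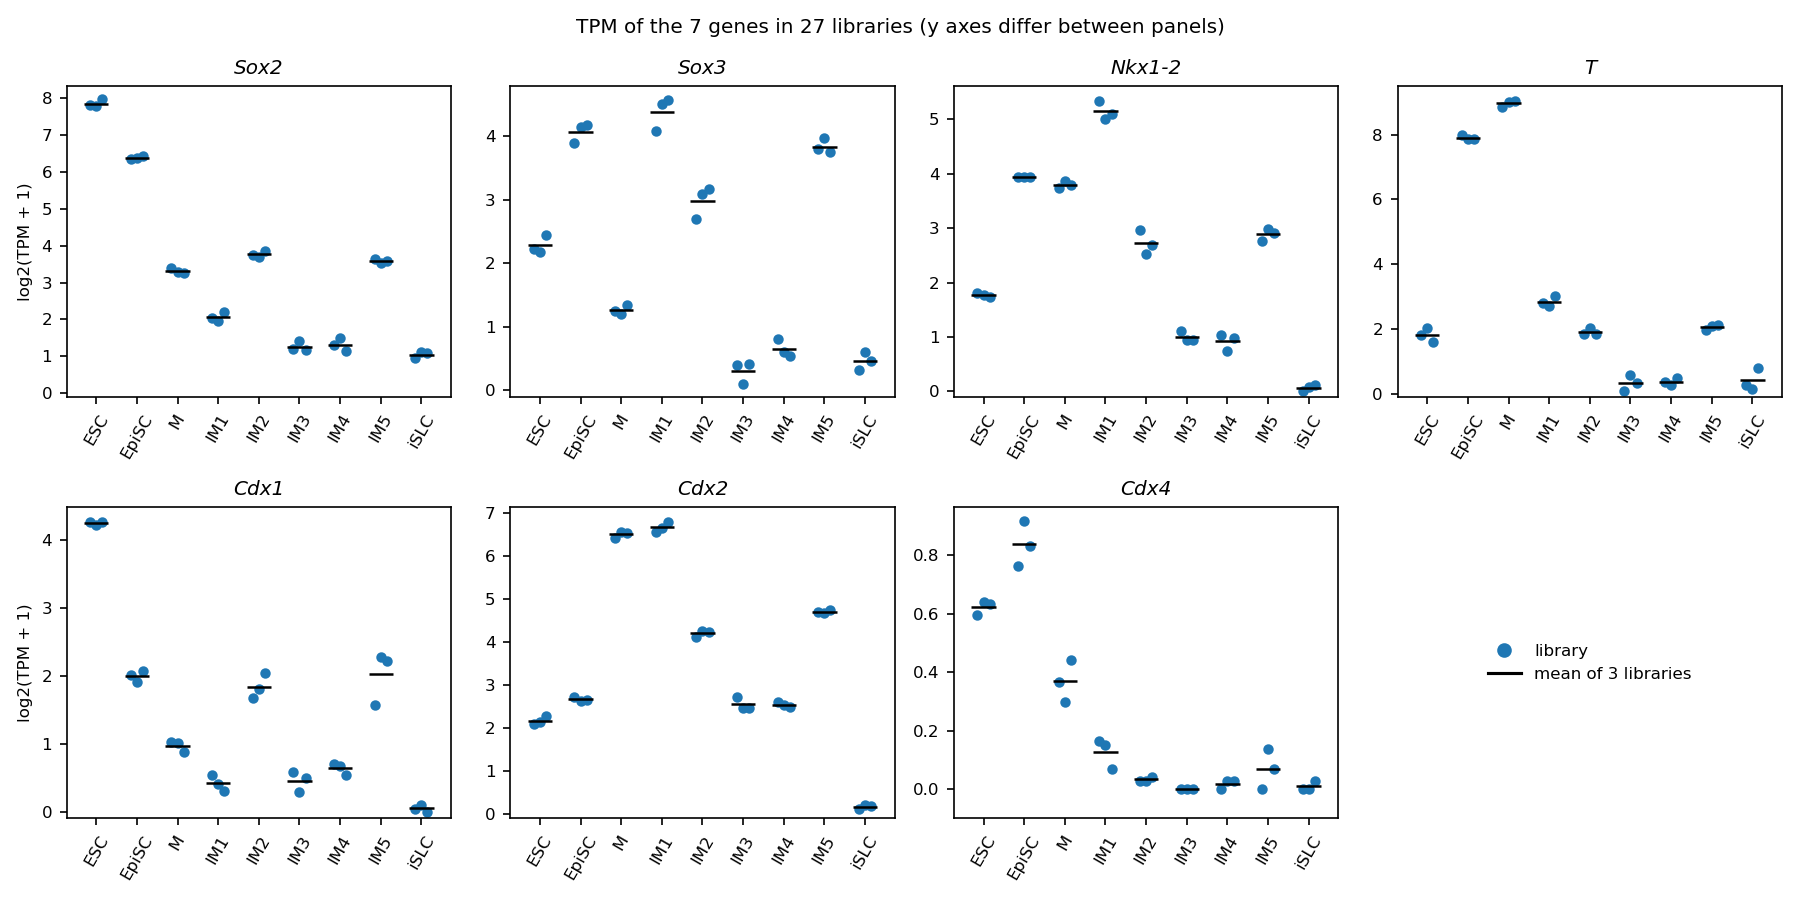
Level of each gene in all 27 libraries as log2(TPM + 1), with 1 panel a gene, the groups on the x axis, a point for each library and a bar at the mean of 3 libraries. The y axes differ between panels, and in the Sox2, Sox3, Nkx1-2, T, Cdx1 and Cdx2 panels the IM2 and IM5 points lie above all IM3 and IM4 points.

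Sox2 (chromosome 3, 34650405 to 34652461, plus strand, GRCm38) fell stepwise from the stem cell state. Its levels were 224, 219 and 252 TPM in ESC, 80.8, 82.9 and 85.2 TPM in EpiSC and 9.47, 8.72 and 8.63 TPM in M. Within the intermediate mesoderm conditions it stood at 12.57, 11.95 and 13.44 TPM in IM2 and at 11.39, 10.55 and 11 TPM in IM5. It stood at 2.89 to 3.56 TPM in IM1 and at 1.22 to 1.80 TPM in IM3 and IM4, whose libraries overlapped, and at 0.940 to 1.15 TPM in iSLC. The order was ESC, EpiSC, IM2, IM5, M, IM1, IM4, IM3 and iSLC, and IM4 with IM3 was the only neighbouring pair whose libraries overlapped. Sox2 lies inside the long noncoding gene Sox2ot on the same strand, with no exon bases in common.

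Sox3 (chromosome X, 60891366 to 60893430, minus strand) had another course. It went from 3.67, 3.53 and 4.47 TPM in ESC to 13.9, 16.7 and 17.2 TPM in EpiSC and to 1.37, 1.31 and 1.54 TPM in M. IM1 had 15.95, 21.7 and 22.8 TPM, IM5 12.9, 14.7 and 12.5 TPM and IM2 5.49, 7.54 and 8.03 TPM. IM3 had 0.320, 0.0700 and 0.340 TPM, the lowest mean of the 9 groups. IM4 (0.450 to 0.760 TPM), iSLC (0.250 to 0.520 TPM) and IM3 overlapped in that order, as did IM1 with EpiSC and EpiSC with IM5. Sox3 transcripts are 66.4% GC, above 99.7% of the genes tested, and libraries differed in a trend with GC content, so values with a GC offset stand beside most Sox3 results. The offset changed no call of Sox3 or Cdx1.

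Nkx1-2 (chromosome 7, 132594878 to 132599637, minus strand), a homeodomain factor of the caudal epiblast, was highest in IM1 at 39.7, 31.2 and 33.1 TPM. EpiSC had 14.35, 14.27 and 14.30 TPM and M 12.4, 13.6 and 12.8 TPM. IM5 (5.83 to 6.95 TPM) overlapped IM2 (4.73 to 6.80 TPM), ESC had 2.31 to 2.52 TPM, and IM3 (0.920 to 1.15 TPM) overlapped IM4 (0.680 to 1.05 TPM). The iSLC libraries were at 0, 0.0600 and 0.0900 TPM. Of the exon bases of Nkx1-2, 16.6% overlap the antisense gene Gm16764, and since no strand setting is given in the sources used here, reads of the pair may be exchanged.

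T (chromosome 17, 8434423 to 8442496, plus strand) was a gene of the EpiSC and M stages. ESC had 2.52, 3.06 and 2.02 TPM, EpiSC 253, 232 and 230 TPM and M 463, 513 and 529 TPM. In IM1 it was at 5.98, 5.52 and 7.05 TPM, the highest of the intermediate mesoderm conditions. IM5 (2.91 to 3.31 TPM), IM2 (2.57 to 3.08 TPM) and ESC overlapped as neighbours, and IM3 (0.0600 to 0.500 TPM), IM4 (0.190 to 0.410 TPM) and iSLC (0.110 to 0.730 TPM) formed an overlapping bottom group.

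The Cdx genes each had their own stage. Cdx1 (chromosome 18, 61018862 to 61036199, minus strand) was at 18.3, 17.6 and 18.3 TPM in ESC and at 3.04, 2.77 and 3.21 TPM in EpiSC. It fell further to 1.04, 1.02 and 0.830 TPM in M. IM2 (2.19 to 3.13 TPM) and IM5 (1.97 to 3.85 TPM) overlapped EpiSC, while IM1, IM3 and IM4 lay between 0.220 and 0.630 TPM and iSLC at 0 to 0.0700 TPM. Cdx1 transcripts, at 62.1% GC, also lie near the top of the tested genes.

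Cdx2 (chromosome 5, 147300805 to 147307270, minus strand) carried most of the Cdx transcripts in every group but ESC. It was at 3.25, 3.40 and 3.88 TPM in ESC, at 5.64, 5.20 and 5.28 TPM in EpiSC and at 85.7, 94.1 and 92.7 TPM in M. IM1 kept 93.3, 99.9 and 111 TPM and overlapped M. IM5 had 25.2, 24.6 and 26.0 TPM and IM2 16.4, 18.2 and 17.8 TPM, without overlap. IM3 had 5.61, 4.57 and 4.57 TPM and IM4 5.12, 4.80 and 4.67 TPM, overlapping each other, and iSLC 0.0900, 0.150 and 0.130 TPM.

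Cdx4 (chromosome X, 103321398 to 103330592, plus strand) stayed below 1 TPM in all 27 libraries. Its highest levels were 0.70, 0.89 and 0.78 TPM in EpiSC and 0.510, 0.560 and 0.550 TPM in ESC. M had 0.290, 0.230 and 0.360 TPM and IM1 0.12, 0.11 and 0.05 TPM, and it was at 0 in all 3 IM3 libraries. With a mean normalized read count of 14.1 over all libraries it passed the filter on low counts but could not be called under the count minimum of 100 used here.

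Within each family the leading gene changed between stages. Of the summed TPM of Sox2 and Sox3, Sox3 made up 1.65% ± 0.083 in ESC (SD, n = 3), 86.1% ± 2.39 in IM1 (SD, n = 3), 54.8% ± 2.89 in IM5 (SD, n = 3) and 35.5% ± 4.46 in IM2 (SD, n = 3). The sum itself was 23.3 ± 3.76 TPM in IM1, 24.3 ± 0.842 TPM in IM5 and 19.7 ± 1.71 TPM in IM2 (SD, n = 3), so conditions with like sums held different proportions. Cdx1 made up 81.7% ± 1.2 of the Cdx transcripts in ESC (SD, n = 3) and 1.05% ± 0.157 in M (SD, n = 3). The third SoxB1 gene, Sox1, a neural plate factor, is left out of this sum; it was at 7.12 ± 0.830 TPM in ESC and at 0.0433 ± 0.0252 TPM in IM2 (SD, n = 3).

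**Figure D2:**
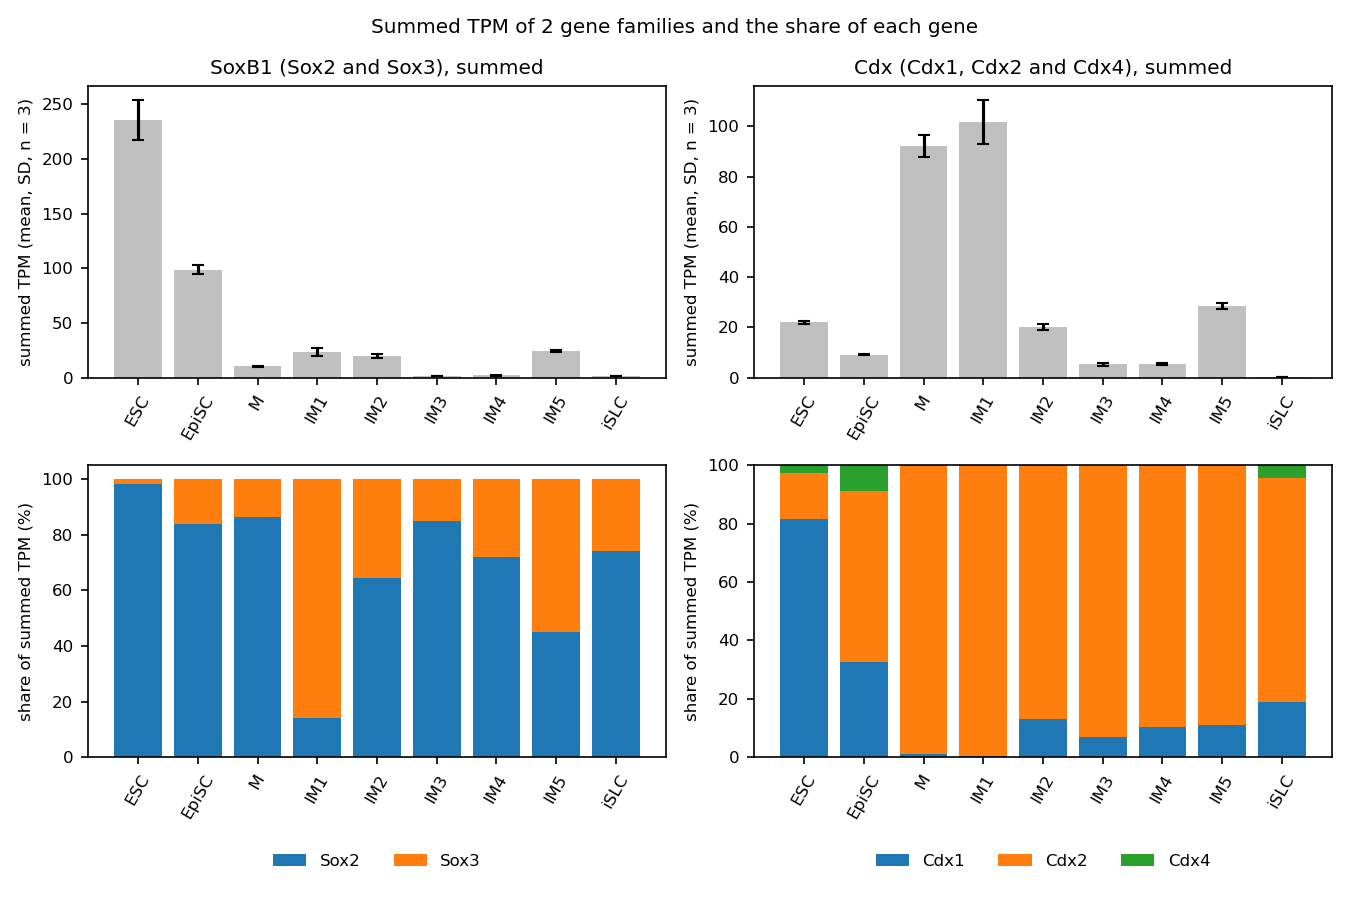
Top, summed TPM of Sox2 and Sox3 (left) and of Cdx1, Cdx2 and Cdx4 (right) by group, as bars at the mean with SD over 3 libraries. Bottom, the mean share of each gene in that sum: Sox3 reaches 86.1% in IM1 and Cdx1 81.7% in ESC.

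Differences between groups were tested with edgeR's quasi-likelihood test on all 20839 genes that passed the filter, with Benjamini-Hochberg adjustment. A gene was called, following the thresholds of the study, where adjusted p was at most 0.01, the fold at least 2, and the mean normalized read count at least 100 over all libraries and in a compared group. In the tests below, the adjusted p is edgeR's, and log2 fold changes are given with their standard error. Several comparisons use the same libraries, IM3 above all, and are not independent of each other. The median log2 fold change over all genes tested lay between -0.06 and 0.01 in every comparison.

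**Figure D3:**
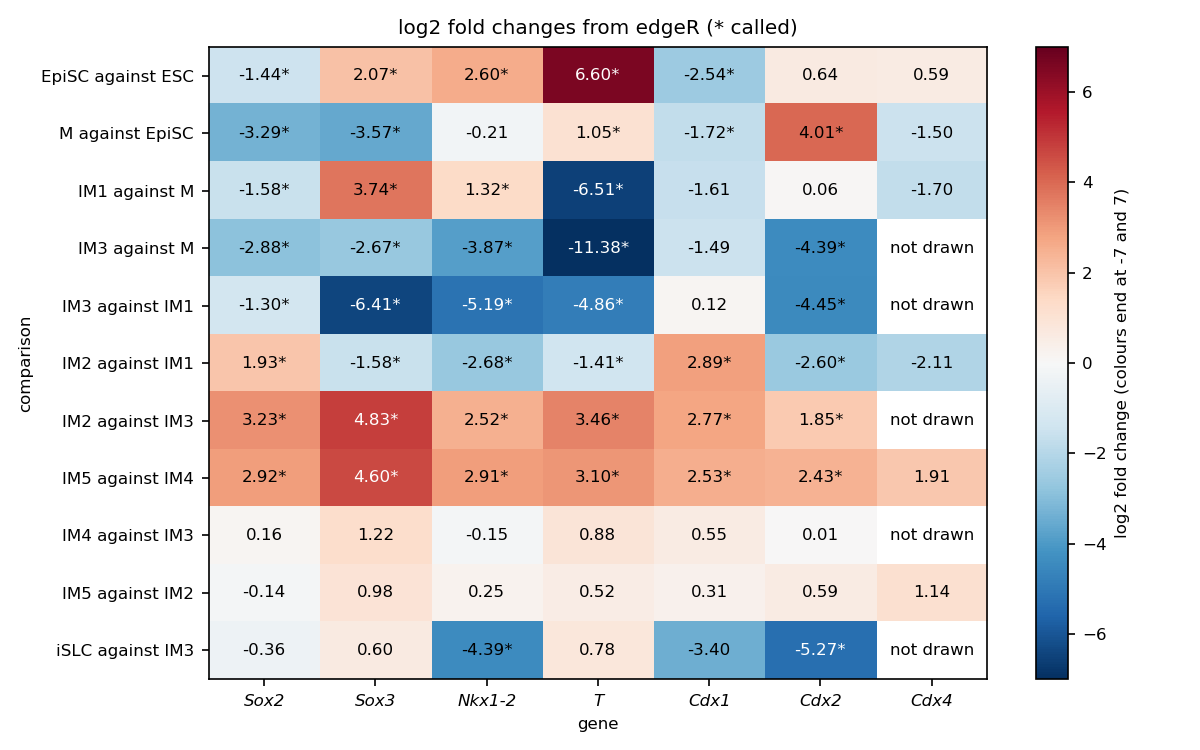
edgeR log2 fold change of each gene (columns) in each of the 11 comparisons (rows), first-named group over second, with red for higher, blue for lower and a star for called genes. The rows IM2 against IM3 and IM5 against IM4 hold 6 called genes each, all higher; Cdx4 is not drawn where IM3, at 0, is compared.

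In EpiSC against ESC, 5 of the 7 members were called, 3 higher and 2 lower, where 8.07% of all genes were called (3.75% higher and 4.32% lower). T rose 97.3-fold (log2 fold change 6.60 ± 0.16 SE, adjusted p = 2.29e-21). Sox3 rose 4.21-fold and Nkx1-2 6.08-fold (adjusted p = 3.62e-11 and 1.09e-14), and with a GC offset the log2 fold change of Sox3 was 1.76 in place of 2.07. Sox2 fell by 1.44 ± 0.07 and Cdx1 by 2.54 ± 0.19 on the log2 scale (adjusted p = 7.37e-15 and 7.71e-12). Cdx2 was higher by 0.64 ± 0.09 (adjusted p = 1.57e-06), under the fold minimum, and no library overlapped. Of 21 posterior signalling and tailbud genes, 12 were called higher and 1 lower (median log2 fold change 1.81), led by Fgf8 (6.04), Evx1 (6.04) and Sp5 (5.41).

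In M against EpiSC, 5 members were called, 2 higher and 3 lower, against 14.5% of all genes (6.79% higher and 7.72% lower). Cdx2 rose 16.1-fold (log2 fold change 4.01 ± 0.08 SE, adjusted p = 9.85e-24), the largest change of a member here. T rose 2.07-fold (1.05 ± 0.11, adjusted p = 6.19e-09), close to the fold minimum: without M replicate 2 the log2 fold change was 0.99 and the call was lost, and without replicate 2 of every group it was 0.98. Sox2 fell 9.77-fold and Sox3 11.9-fold (adjusted p = 1.20e-21 and 2.24e-15). With a GC offset Sox3 fell by 3.19 on the log2 scale in place of 3.57. Cdx1 fell by 1.72 ± 0.22 on the log2 scale (adjusted p = 1.12e-07). Nkx1-2 stood within 0.21 ± 0.12 of its EpiSC level on the log2 scale (adjusted p = 0.121). In the same M libraries Sox2 was at 8.94 ± 0.461 TPM and Sox3 at 1.41 ± 0.119 TPM (SD, n = 3).

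In the same comparison, of the posterior signalling genes 7 were called higher and 2 lower (median 0.45), with Fgf3 (5.20) and Cyp26a1 (3.24), a retinoic acid degrading enzyme, up and Fgf4 (-4.48) down. Of 12 presomitic mesoderm genes tested, 6 were higher and 1 lower (median 2.79), led by Msgn1 (5.87), Mesp1 (5.26) and Rspo3 (4.99). Of 21 neural genes tested, none rose and 8 fell (median -2.35), led by Elavl3 (-4.38), Otx2 (-3.91) and Olig2 (-3.80). Of 17 trunk Hox genes of groups 5 to 10, known targets of Cdx proteins, 9 rose and none fell (median 3.30), led by Hoxb6 (7.06), Hoxb8 (5.09) and Hoxb7 (4.75).

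After 3.5 days in FGF and BMP alone, IM1 against M, T was lower and the Cdx2 libraries of both groups overlapped. Here 4 members were called, 2 higher and 2 lower, against 15.7% of all genes (9.72% higher and 5.94% lower). T fell 91.2-fold (log2 fold change -6.51 ± 0.15 SE, adjusted p = 8.45e-23) and Sox2 2.99-fold (-1.58 ± 0.10, adjusted p = 9.08e-14). Sox3 rose 13.4-fold (3.74 ± 0.19, adjusted p = 7.49e-16), or by 3.26 on the log2 scale with a GC offset, and Nkx1-2 rose 2.50-fold (1.32 ± 0.12, adjusted p = 2.19e-10). Cdx2 differed by 0.06 ± 0.07 (adjusted p = 0.455). With a GC offset this turned to -0.18 (adjusted p = 0.00913), under the fold minimum, so its direction depended on the offset. Cdx1 was lower by 1.61 ± 0.28 (adjusted p = 1.71e-05) at counts under the minimum.

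In IM1, the trunk Hox genes went up with 14 of 17 called higher and none lower against M (median log2 fold change 2.35), led by Hoxa10 (5.02), Hoxc9 (4.29) and Hoxc10 (4.23). The posterior signalling genes went down, 13 of 21 with none higher (median -3.12), among them Fgf8 (-6.51), Sp8 (-5.26) and Sp5 (-5.23). Fgf8 was at 1.89 ± 0.333 TPM and the presomitic regulator Tbx6 at 0.853 ± 0.0907 TPM in IM1 (SD, n = 3). In the group where Nkx1-2, Sox3 and Cdx2 were at their highest, T was at 6.18 ± 0.785 TPM and Sox2 at 3.20 ± 0.338 TPM (SD, n = 3).

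Markers of other tissues known for Cdx2 moved too. Of 9 allantois and extraembryonic mesoderm genes, 4 were higher and 2 lower in IM1 than in M (median 0.71). The 4 higher included Tbx4 (9.50), Hoxa11 (6.62) and Vcam1 (6.16), and the list summed to 697.2 to 703.7 TPM in IM1, 451.1 to 499.3 TPM in M and 185.3 to 190.3 TPM in IM3, with none of the 9 genes at 0. Of 12 trophoblast genes tested, 5 were higher and 2 lower (median 0.88), led by Eomes (-6.36), Ascl2 (2.75) and Esx1 (2.68). That list summed to 2116 to 2309 TPM in IM1, 1286 to 1421 TPM in M and 1221 to 1294 TPM in IM3, and its defining gene Elf5 was at 0.0667 ± 0.0379 TPM in IM1 (SD, n = 3). Such a sum is weighted to abundant genes, and the trophoblast list shares Hand1 with the allantois list. In iSLC it summed to 47.1 to 49.3 TPM. There 7 of its genes were lower and none higher than in IM3, led by Krt8 (-5.86), Hand1 (-5.67) and Plac1 (-2.76). Of 13 gut and definitive endoderm genes, 4 were higher and 1 lower (median 1.09), led by Vil1 (3.49), Hnf4a (2.93) and Gata6 (1.94). They summed to 125.4 to 143.4 TPM in IM1, 82.2 to 91.8 TPM in M and 158.7 to 176.6 TPM in IM3, with none at 0 in every IM1 library, and the intestinal gene Cdh17 was at 0.263 ± 0.0961 TPM in IM1 (SD, n = 3). The part of these cell types in the level of Cdx2 was not tested.

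**Figure D4:**
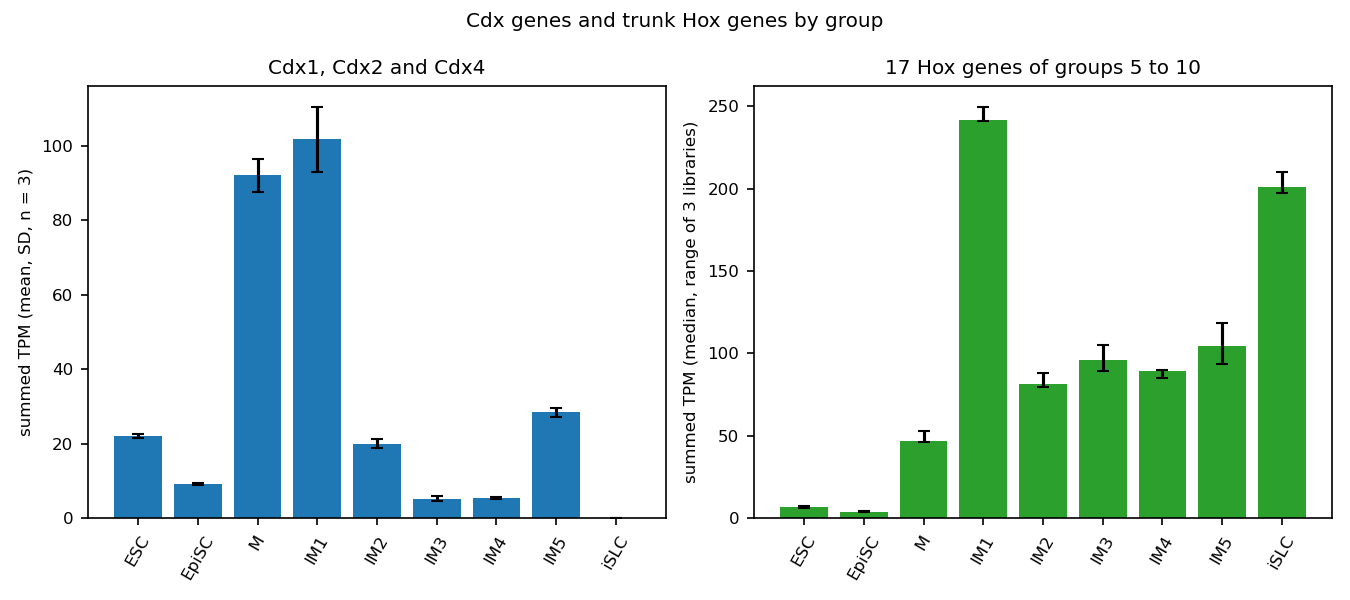
Left, summed TPM of the 3 Cdx genes by group, mean and SD of 3 libraries; right, summed TPM of 17 trunk Hox genes, median with the range of 3 libraries. IM1 is the highest group in both panels (101.8 TPM Cdx on average, median 241.6 TPM Hox), while iSLC has 0.163 TPM of Cdx and a Hox median of 200.9 TPM.

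Retinoic acid as the single added agent, IM3 against IM1, lowered 5 members and raised none, against 6.34% of all genes called (2.62% higher and 3.72% lower). Sox3 fell 85.1-fold (log2 fold change -6.41 ± 0.25 SE, adjusted p = 3.77e-17), or by 6.00 on the log2 scale with a GC offset. Nkx1-2 fell 36.6-fold (adjusted p = 3.64e-19), T 29.1-fold (adjusted p = 2.15e-12), Cdx2 21.8-fold (adjusted p = 1.55e-22) and Sox2 2.46-fold (adjusted p = 1.15e-08). The IM3 libraries held 3, 11 and 9 counts of T and 19, 3 and 15 of Sox3. The size of the folds of both genes against IM3 thus rests on few reads. Cdx1 did not pass the test (0.12 ± 0.36, adjusted p = 0.804), and its libraries overlapped. Cdx4 had 23 counts summed over the IM1 libraries and 0 over the IM3 libraries, at least 4.72-fold lower taking 3 counts per group as the floor. The median log2 fold change of the 7 members was -4.86.

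Retinoic acid response genes moved the other way, with 5 of 12 higher in IM3 than in IM1 and none lower (median 2.08), among them Rarb (5.71) and Cyp26b1 (4.60). Of the trunk Hox genes 1 was higher and 11 lower (median -1.59), with Hoxc10 (-3.65), Hoxc9 (-2.78) and Hoxb8 (-2.72) in front. The posterior signalling genes had 1 higher and 4 lower (median -1.19), led by Evx1 (-3.53), Fgf3 (-2.98) and Wnt3 (-1.81). Of 9 allantois genes, 8 were lower and none higher (median -1.73), led by Tbx4 (-5.07), Hoxa11 (-3.18) and Hoxa13 (-3.12). Of 10 primitive streak and mesendoderm genes, 6 were lower and none higher (median -1.99). Trophoblast genes had 5 lower and none higher of 12 tested (median -1.23), and gut genes 1 higher and 3 lower of 13 (median -0.84). The part of these tissues in the level of Cdx2 was not tested. The red blood cell list differed between these groups, 3.06 to 4.54 TPM in IM1 and 21.3 to 74.4 TPM in IM3.

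Against M, IM3 had 5 members lower and none higher, where 14.9% of all genes were called (9.26% higher and 5.66% lower). T fell 2656-fold (log2 fold change -11.38 ± 0.23 SE, adjusted p = 5.19e-24), from 463 TPM or more in each M library to 0.500 TPM or less in each IM3 library. The size of this fold rests on 3, 11 and 9 counts of T in the IM3 libraries. Cdx2 fell 20.95-fold (adjusted p = 3.61e-24), Nkx1-2 14.7-fold (adjusted p = 1.85e-17) and Sox2 7.36-fold (adjusted p = 3.79e-17). Sox3 fell by 2.67 ± 0.33 on the log2 scale (adjusted p = 5.80e-08), but its mean normalized read count in M, 102, sat at the count minimum: without M replicate 3 it was 99.2 at a log2 fold change of -2.63 and the call was lost, as it was with DESeq2. Cdx1 had a log2 fold change of -1.485 ± 0.31 (adjusted p = 0.000144) at counts under the minimum. Cdx4, with 55 counts over the M libraries, was at least 15.6-fold lower in IM3. In this pair the red blood cell list was high on both sides. The posterior signalling list fell with 14 of 21 lower and none higher (median -3.27), Fgf8 (-10.71), Sp8 (-8.29) and Fgf17 (-7.81) in front. Of the 17 trunk Hox genes, 8 were higher and 1 lower in IM3 than in M (median 0.64), led by Hoxa5 (3.38), Hoxa10 (2.76) and Hoxb5 (2.18). Their relation to the level of Cdx2 was not tested.

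Activin A added to the retinoic acid medium, IM2 against IM3, raised 6 of the 7 members and lowered none, against 3.8% of all genes (2.46% higher and 1.34% lower). Sox3 rose 28.4-fold (log2 fold change 4.83 ± 0.27 SE, adjusted p = 1.53e-13), or by 4.48 with a GC offset. T rose 10.97-fold (3.46 ± 0.40, adjusted p = 1.19e-07), to 2.76 ± 0.281 TPM (SD, n = 3). Sox2 rose 9.36-fold, Cdx1 6.82-fold, Nkx1-2 5.71-fold and Cdx2 3.60-fold (adjusted p = 1.73e-16, 7.57e-09, 4.20e-12 and 8.21e-15). For each of the 6, all IM2 libraries lay above all IM3 libraries. The folds of Sox3 and T again rest on few counts in IM3. T and Cdx1 passed the count minimum over all libraries through other groups. In a fit of only IM2 and IM3 their mean counts were 54.0 and 71.7, and neither was called. Cdx4 had 4 counts over the IM2 libraries and 0 over those of IM3. The median over the members was 3.23.

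With CHIR99021 in both media, IM5 against IM4, Activin A again raised 6 members and lowered none, against 4.09% of all genes (2.63% higher and 1.46% lower). These are separate libraries from the former comparison, though in both the groups also differed in the red blood cell list and GC trend. The rises were 24.2-fold for Sox3, 8.55-fold for T, 7.59-fold for Sox2, 7.52-fold for Nkx1-2, 5.78-fold for Cdx1 and 5.41-fold for Cdx2 (adjusted p = 4.66e-15, 6.16e-09, 1.44e-16, 1.31e-13, 3.61e-09 and 2.27e-17). With a GC offset the log2 fold change of Sox3 was 4.15 in place of 4.60 and that of Cdx1 2.10 in place of 2.53. Again the 3 libraries with Activin A lay above the 3 without it for each of the 6 genes. In a fit of only IM4 and IM5, T had a mean count of 89.6, under the count minimum, and was not called. Cdx4 had 10 counts over the IM5 libraries and 2 over those of IM4. In a library, the GC trend is the log2 level of GC-rich over GC-poor genes, relative to all libraries. It was -0.50 to -0.11 in IM3 and -0.47 to -0.22 in IM4, against -0.06 to 0.28 in IM2 and 0.22 to 0.62 in IM5. With a GC offset the same members were called in both comparisons.

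**Figure D5:**
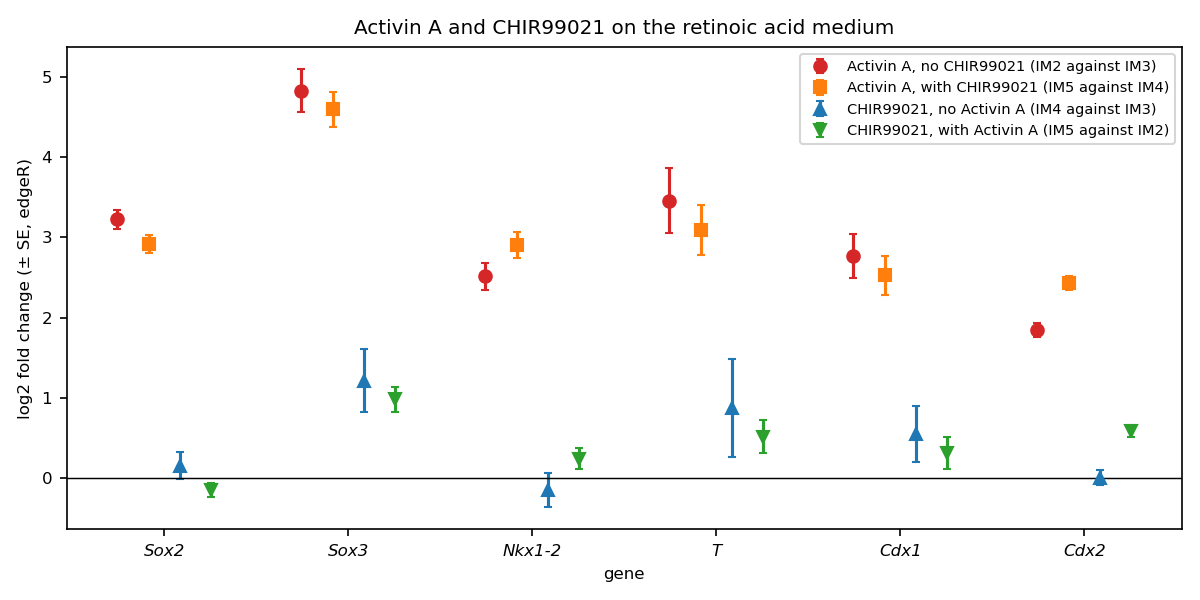
edgeR log2 fold change with its standard error for 6 members (Cdx4 left out, being at 0 in IM3) under Activin A without and with CHIR99021 and under CHIR99021 without and with Activin A. All Activin A values lie between 1.85 and 4.83, all CHIR99021 values between -0.15 and 1.22.

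The streak genes rose alongside; they share Evx1 with the posterior signalling genes, so the counts of both lists are not independent. Of 10 primitive streak and mesendoderm genes, 7 were called higher and none lower in IM2 against IM3 (median 1.89), led by Eomes (5.26), Nodal (3.33) and Mixl1 (2.46), and 7 with none lower in IM5 against IM4 (median 2.07). Posterior signalling genes had 6 higher and none lower in IM2 (median 1.19), led by Sp5 (3.31), Evx1 (2.01) and Lef1 (1.58), and 7 higher and none lower in IM5 (median 1.40), led by Sp5 (2.91), Evx1 (2.72) and Wnt8a (2.50). Pluripotency genes had 5 of 12 higher and none lower in IM2 against IM3 (median 0.86), led by Utf1 (2.10), Pou5f1 (1.92) and Klf2 (1.49), and 4 higher and none lower in IM5 against IM4 (median 0.81), led by Utf1 (2.56), Pou5f1 (2.22) and Klf2 (1.58). They summed to 96.1 to 99.2 TPM in IM2 and 103.6 to 108.1 TPM in IM5, against 50.0 to 54.0 TPM in IM3 and 49.6 to 55.9 TPM in IM4, with none at 0 in every library of a group. Their part in the level of Sox2 was not tested. Allantois genes had 4 of 9 higher and none lower in both comparisons (median 0.87 and 0.88), led by Tbx4 (2.15 and 2.81), Hoxa13 (1.95 and 2.37) and Hoxa11 (1.89 and 2.22). Gut and definitive endoderm genes had 3 of 13 higher in IM2 and 1 in IM5, with none lower (median 0.97 and 0.57). Neural genes had 2 higher and none lower of 21 tested in IM2, Zic2 (2.06) and Tubb3 (1.01) (median 0.90), while Pax6 stood at 0.147 ± 0.0306 TPM in IM2 (SD, n = 3). In IM5 against IM4 they had 2 higher, Zic2 (2.37) and Tubb3 (1.02), and 1 lower, Lhx2 (-1.19) (median 1.02). Trunk Hox genes split, 4 higher and 3 lower in IM2 (median -0.30), with Hoxc5 (-2.54), Hoxc8 (-2.05) and Hoxa5 (-1.18) in front, and 5 higher and 3 lower in IM5 (median 0.03). The red blood cell list was 1.62 to 1.86 TPM in IM2 and 1.88 to 3.04 TPM in IM5, against 21.3 TPM or more in every IM3 and IM4 library.

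Set against IM1, the medium with both retinoic acid and Activin A left 2 members above and 4 below their IM1 levels. In IM2 against IM1, 6 members were called, 2 higher and 4 lower, against 3.51% of all genes (1.94% higher and 1.56% lower). Cdx1 was 7.42-fold and Sox2 3.80-fold higher in IM2 (adjusted p = 7.61e-10 and 1.17e-14). Nkx1-2 was 6.41-fold, Cdx2 6.06-fold, Sox3 2.99-fold and T 2.65-fold lower (adjusted p = 5.95e-15, 8.19e-19, 6.29e-09 and 8.58e-07). No library of IM2 overlapped one of IM1 for any of these 6. In a fit of only IM1 and IM2, Cdx1 had a mean count of 90.3, under the count minimum, and was not called. Trunk Hox genes had none higher and 13 of 17 lower (median -1.85), led by Hoxc8 (-2.85), Hoxc10 (-2.51) and Hoxb8 (-2.46), and retinoic acid response genes 6 higher and 1 lower of 12 (median 2.13), led by Rarb (5.12), Cyp26b1 (4.10) and Cyp26a1 (2.55). The red blood cell list was low in both groups.

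CHIR99021 at 0.3 μM gave no call among the members. In IM4 against IM3, edgeR called 0 of the 7 (0.101% of all genes were called, 0.0% higher and 0.101% lower), 1 member had an unadjusted p under 0.05, and DESeq2 called 0. The member with that p, Sox3, was 1.22 ± 0.39 higher on the log2 scale (adjusted p = 0.128), all 3 IM4 libraries above those of IM3. In IM5 against IM2, edgeR called 0 (0.235% of all genes, 0.0432% higher and 0.192% lower), 3 had an unadjusted p under 0.05 and DESeq2 called 0. Sox3 was 1.98-fold higher in IM5 (0.98 ± 0.16, adjusted p = 0.000127) and Cdx2 1.51-fold higher (0.59 ± 0.07, adjusted p = 5.79e-06), both without overlap between libraries and both under the fold minimum. Sox3 passed it on leaving out IM2 replicate 2 (1.04), IM2 replicate 3 (1.10) or IM5 replicate 3 (1.04). Of the posterior signalling genes none was called in either comparison, and Axin2, a Wnt target, was at 13.2 ± 0.605 TPM in IM3 and 18.4 ± 1.67 TPM in IM4 (SD, n = 3).

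Whether the effect of Activin A differed with CHIR99021 present was tested as an interaction. edgeR called 0 of the 7 members (0.0336% of all genes, 0.0096% higher and 0.024% lower), 1 had an unadjusted p under 0.05, and DESeq2 called 0. For Cdx2 the Activin A effect was larger by 0.58 ± 0.12 on the log2 scale with CHIR99021 (adjusted p = 0.0198). The other 6 had adjusted p between 0.586 and 0.897.

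In the Sertoli-like cells, iSLC against IM3, 2 members were called, both lower, against 19.2% of all genes (10.3% higher and 8.92% lower). Cdx2 fell 38.6-fold (log2 fold change -5.27 ± 0.18 SE, adjusted p = 1.75e-19) and Nkx1-2 20.9-fold (-4.39 ± 0.36, adjusted p = 2.57e-11). The Nkx1-2 call rested on a mean of 104 normalized reads in IM3: without IM3 replicate 1 it was 97.3, at a log2 fold change of -4.26, and the call was lost. Cdx1 was lower by 3.40 ± 0.58 (adjusted p = 8.77e-06) at counts under the minimum. Sox2, Sox3 and T had adjusted p of 0.0603, 0.195 and 0.248, and the log2 fold change of Sox3 was 0.60, or 0.05 with a GC offset. Of the 17 trunk Hox genes, 6 were higher and 1 lower in iSLC (median 0.76), led by Hoxa5 (2.27), Hoxa9 (2.19) and Hoxa7 (1.97). Here too their relation to the level of Cdx2 was not tested. The red blood cell list was 1.65 to 2.18 TPM in iSLC.

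The genes whose levels were most like each member's were found by Pearson correlation of log2(TPM + 1) over the 27 libraries among 13061 genes. These are descriptions, since the libraries of a group share their culture condition. T was most like Fgf8 (r = 0.990), Ltb (0.978) and Il17rd (0.970); Fgf8, a tailbud growth factor, was at 109 ± 3.89 TPM in EpiSC and 177 ± 15.3 TPM in M (SD, n = 3). Genes like Sox2 included Lefty2 (0.987), a Nodal antagonist, and Ap3b2 (0.968); Lefty2 was at 129 TPM in ESC, 8.53 TPM in IM2 and 0.927 TPM in IM3 on average. Sox3 was most like Pcsk1n (0.984), Rem2 (0.919) and Zfp511 (0.914), with Pcsk1n at 17.9 ± 1.25 TPM in IM1 and 0.803 ± 0.0777 TPM in IM3 (SD, n = 3).

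For Cdx2 the nearest were Rbm20 (r = 0.961), Frat2 (0.956) and Gchfr (0.936), and for Nkx1-2 Loxl4 (0.932), the Notch feedback gene Nrarp (0.929) and Rps10 (0.867). For Cdx1 they were Slc44a4 (0.929), Btbd11 (0.926) and Sox2 itself (0.920), and for Cdx4, at levels under 1 TPM, Ina (0.986), Usp26 (0.986) and Pim2 (0.984). Among the members, the other close pairs were Sox2 with Cdx4 (0.849), Nkx1-2 with Cdx2 (0.834) and Nkx1-2 with Sox3 (0.798), while Sox2 with Cdx2 was at -0.01 and Cdx1 with Cdx2 at -0.07.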

How the data were processed

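RNA-seq libraries (27, in 9 groups of 3, TruSeq, paired-end) were processed by the authors with cutadapt 1.9.1, STAR 2.5.2a and RSEM 1.3.0 on GRCm38. Each deposited file holds, per gene, the RSEM estimated count, which need not be whole, and the effective length. The TPM and FPKM values in the deposited files were also computed by RSEM, and FPKM was tabulated but used for no result. Reads that fit several genes are shared out by RSEM's model. Groups were taken from the sample titles.

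The members and the gene lists were chosen with earlier results of these data known. Some lists share genes, such as Mesp1 in the streak and presomitic lists and Cyp26a1 in the posterior signalling and retinoic acid lists. Expected counts were rounded, filtered with filterByExpr (20839 genes kept) and fitted with edgeR 4.0.16 (R 4.3.3), TMM and 1 coefficient a group over all 27 libraries (18 residual degrees of freedom); the study used DESeq2 for its own tests, run here (1.42.0) as an alternative. The same code, run on simulated counts, recovered genes changed well beyond the fold minimum at mean counts well over the count minimum. The simulation did not cover changes or counts close to these minimums. Nor did it cover groups at a few counts, such as T and Sox3 in IM3. The standard error is the log2 fold change divided by the square root of F. Gene names and positions came from a GRCm38 annotation (99.1% of genes named).

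All 7 members were tested in each comparison, and a member not named in the text of a comparison was not called in it. Of each list, the 3 called genes with the largest fold change were named. Tbx6, Elf5, Cdh17, Pax6, Axin2, Gata4 and Sox1 levels were named outside this rule, after their values were seen. Some genes that the rule names are not reported here. TPM carries no depth, and counts of 35923040 to 84876603 a library set the precision; bounds cover counting error only. Alternatives were size factors, filters, thresholds, an effective length offset, a GC offset, the replicate block, fits of only the groups compared, and leaving out libraries. The comparison of member proteins was not run. Replicate pairs differed by more than sampling noise (chi-square per degree of freedom from 3.48 to 49.7), so none was merged.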

Additional observations from a re-analysis of the deposited data

Results flagged for a closer look

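The effect of Activin A on Cdx2 was larger with CHIR99021 than without it at an adjusted p of at most 0.05, but was not called as different at the threshold of 0.01. The log2 fold change was 1.85 ± 0.09 (SE) without it (IM2 against IM3) and 2.43 ± 0.08 with it (IM5 against IM4), and the difference itself, tested as an interaction with edgeR, was 0.5848 ± 0.12 (adjusted p = 0.0198, 3 libraries a group). Over the alternatives the interaction lay between 0.41 and 0.72, with adjusted p from 0.0014 with DESeq2 to 0.262 without replicate 3 of every group. Leaving out IM3 replicate 1, the highest of the IM3 libraries at 5.61 TPM, gave 0.49 (adjusted p = 0.104), leaving out IM2 replicate 1 gave 0.54 (adjusted p = 0.0526) and leaving out IM4 replicate 3 gave 0.57 (adjusted p = 0.0544).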

How the results depend on the processing

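Of 1714 log2 fold changes of the members recomputed under alternatives (84 values, 7 members in 12 tests), 1657 kept their direction and their side of the thresholds, 13 lost a call, 15 gained one and 29 changed sign. In IM5 against IM2 the count of members called went from 0 to 2 with no fold minimum and to 1 with the replicate block, and lay between 0 and 1 on leaving out replicates; in iSLC against IM3 it went from 2 to 1 in a fit of only the groups compared and lay between 1 and 2 on leaving out replicates. Each sign change was in a value that was not called. Cdx2 in IM1 against M turned to -0.1815 with the GC offset and -0.1839 with the GC offset and block (-0.01954 to 0.1344 on leaving out replicates). Cdx2 in IM4 against IM3 turned to -0.006871 with DESeq2 size factors, -0.005597 with the GC offset, -0.006358 with the GC offset and block and -0.005404 with DESeq2 (-0.04633 to 0.1061). On leaving out replicates, ranges that crossed or met 0 were -0.1609 to 0.3652 for Cdx1 in IM3 against IM1, -0.02691 to 0.287 for Sox2 and -0.2678 to 0.02825 for Nkx1-2 in IM4 against IM3, -0.06312 to 1.743 for Cdx4 in IM5 against IM2, and in iSLC against IM3 -0.03643 to 1.129 for Sox3, -0.5459 to 1.601 for T and 0 to 2.287 for Cdx4. For the interaction they were -0.4923 to 0.1499 for Sox3, -1.114 to 0.2038 for T and -0.514 to 0.005111 for Cdx1. The cause of the changes was not tested. Fits of only the groups compared also lost Cdx1 in IM2 against IM1 (2.88), T and Cdx1 in IM2 against IM3 (3.43 and 2.77), T in IM5 against IM4 (3.09) and Sox3 in IM3 against M (-2.66), all at adjusted p of 2.71e-06 to 2.45e-05 and mean counts under 100. Without the count minimum, genes called over the whole table rose from 1682 to 3826 in EpiSC against ESC and from 4011 to 7015 in iSLC against IM3; without the fold minimum they rose to 7857 and 10507. In the other 9 comparisons between groups these settings gave 1.71 to 2.06 and 3.05 to 16.5 times the main counts. The 21 genes called in IM4 against IM3 became 12 in a fit of only the groups compared or without IM3 replicate 1 and 8 without replicate 3, and the 7 of the interaction became 36 with no fold minimum, 13 with no filter on low counts, 12 with DESeq2, 3 with the length offset or only the groups compared, and 0 to 8 on leaving out libraries.

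Replicate numbers do not pair the libraries: the correlation of deviations of same-numbered libraries lay between -0.0911 and 0.12 and passed 0.1 in every pair of no comparison. With the replicate block, Sox3 in IM5 against IM2 reached 1.00 on the log2 scale (adjusted p = 1.16e-05) and was called; the block changed no other call of a member. Depth limits Cdx4, whose counts summed to 0 over the IM3 libraries. With a pseudocount of 0.1 only 1 of the 3 genes named as most like Nkx1-2, and 1 of the 3 for Cdx4, stayed among the 10 most like.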
